A study of Mus musculus with 3 samples.

Results

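The 10 tubulin genes described here were *Tuba1a*, *Tuba1b*, *Tuba1c* and *Tuba4a* for alpha tubulin, *Tubb5*, *Tubb4b*, *Tubb2a*, *Tubb2b* and *Tubb6* for beta tubulin, and *Tubg1* for gamma tubulin, chosen by name from the 31053 genes of the feature table. They were measured by single-cell RNA sequencing of spleen CD4+ T cells of C57BL/6 mice, enriched for naïve cells and sorted as 7AAD-CD3+CD4+. The first library came from unstimulated WT cells, kept in DPBS (0 h), and the second from stimulated WT cells, cultured for 24 h with anti-CD3 and anti-CD28 antibodies at 1 μg/mL each. The third came from stimulated IFT20-KO cells, given the same antibodies for 24 h. No library came from cells cultured for 24 h without antibodies. Antibodies, time in culture and library therefore cannot be told apart in the stimulation comparison, and stimulation below means these together. Mice of all 3 libraries carried the floxed *Ift20* allele (*Ift20* f/f), so WT means floxed without Cre. The KO mice also carried CD4 cre, which is active from the thymus on and not only in CD4+ cells. The mice were males of 5 to 10 weeks, and how many were pooled into each library is not given in the sources used here. With 1 library per group no value had a replicate, so no test was made, and each 95% interval covers counting error alone.

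Microtubules are polymers of heterodimers of alpha and beta tubulin, and gamma tubulin forms the ring complex that starts new microtubules at the centrosome. A T cell that meets antigen moves its centrosome to the contact with the presenting cell, so that vesicles travel along microtubules to the immunological synapse. Mammals encode several isotypes of each tubulin, most of which differ mainly in their acidic tails, and excess free dimer leads to decay of tubulin mRNAs during translation, by recognition of the first residues of the nascent chain.

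For that reason the first 12 coding bases of each gene are shown, read from the GENCODE M21 transcripts (GRCm38), with the bases after the start codon in capitals.
Tuba1a: atgCGTGAGTGC
Tuba1b: atgCGTGAGTGC
Tuba1c: atgCGTGAGTGC
Tuba4a: atgCGCGAGTGC
Tubb5: atgAGGGAAATC
Tubb4b: atgAGGGAGATC
Tubb2a: atgCGCGAGATC
Tubb2b: atgCGAGAGATC
Tubg1: atgCCGAGAGAA
*Tuba1a*, *Tuba1b* and *Tuba1c* shared all 12 bases and *Tuba4a* differed from them at 1 position, C6T being the substitution from *Tuba4a* to the others, counted from 1 at the A of the start codon. The 4 beta genes shown all ended in ATC and the 4 alpha genes in TGC. No sequence of *Tubb6* is shown.

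Over the whole coding sequence, *Tuba1a* and *Tuba1b* were 98.3% identical, *Tuba1b* and *Tuba1c* 97.9% and *Tuba1a* and *Tuba1c* 97.1%, whereas *Tuba4a* was 84.8% identical to *Tuba1a*. *Tubb2a* and *Tubb2b* were 96.5% identical, and *Tubb5* was 82.2% identical to *Tubb4b*. Because reads of such copies cannot always be placed, 90-base windows of the transcripts were compared with all other GENCODE transcripts. Windows shared with another gene or pseudogene made up 66.0% of *Tuba1a*, 70.7% of *Tuba1b*, 54.7% of *Tuba1c*, 39.4% of *Tubb2a*, 32.3% of *Tubb4b* and 29.5% of *Tubb2b*. The share depended on the end of the transcript. In the first 300 bases it was 49.3% for *Tuba1a*, 23.3% for *Tuba1b*, 15% for *Tubb2b* and 0% for *Tuba1c*, *Tubb2a* and *Tubb4b*. In the last 300 it was 34.3% for *Tuba1a*, 45.3% for *Tuba1b*, 52% for *Tuba1c*, 22.3% for *Tubb2a*, 12% for *Tubb4b* and 0% for *Tubb2b*. For *Tuba4a*, *Tubb5* and *Tubb6* the share of the whole transcript was 0%, and for *Tubg1* it was 5.25%, shared with *Tubg2*. The split between *Tuba1a*, *Tuba1b* and *Tuba1c*, and between *Tubb2a* and *Tubb2b*, is therefore less certain than the levels of *Tubb5*, *Tuba4a*, *Tubb6* and *Tubg1*.

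*Tuba1b* and *Tuba1a* lie 15271 bases apart on the minus strand of chromosome 15, at 98931425 to 98934565 and 98949837 to 98953703 (GRCm38, GENCODE M21), and *Tuba1c* lies at 99029891 to 99038110 on the plus strand. *Tubb2a* and *Tubb2b* lie 48740 bases apart on the minus strand of chromosome 13, at 34074274 to 34078007 and 34126748 to 34130466. *Tubb5* lies on chromosome 17 (35833921 to 35838306), *Tubb4b* on chromosome 2 (25222160 to 25224702), *Tuba4a* on chromosome 1 (75214228 to 75219865) and *Tubg1* on chromosome 11 (101119938 to 101126419). All are annotated as protein coding. The 150 bases before the RefSeq transcription start (build GRCm38.p6) are shown for 5 genes that moved apart on stimulation, as described below, with 4 motifs on either strand in capitals, which are the CCAAT box (spelled CCAAT), the GC box (spelled GGGCGG), the TATA box (spelled TATAAA) and the E-box (spelled CACGTG).
Tuba1b (chr15:98934391-98934540, minus strand): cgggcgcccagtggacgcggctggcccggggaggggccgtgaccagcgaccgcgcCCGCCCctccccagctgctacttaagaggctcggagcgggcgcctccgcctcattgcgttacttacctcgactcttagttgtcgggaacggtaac
Tuba1a (chr15:98953502-98953651, minus strand): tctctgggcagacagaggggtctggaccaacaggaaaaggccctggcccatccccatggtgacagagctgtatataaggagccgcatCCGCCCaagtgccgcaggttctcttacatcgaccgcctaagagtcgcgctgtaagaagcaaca
Tubb5 (chr17:35838302-35838451, minus strand): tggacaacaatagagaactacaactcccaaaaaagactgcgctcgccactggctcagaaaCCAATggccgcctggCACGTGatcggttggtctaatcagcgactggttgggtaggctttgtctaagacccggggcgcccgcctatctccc
Tubb4b (chr2:25224703-25224852, minus strand): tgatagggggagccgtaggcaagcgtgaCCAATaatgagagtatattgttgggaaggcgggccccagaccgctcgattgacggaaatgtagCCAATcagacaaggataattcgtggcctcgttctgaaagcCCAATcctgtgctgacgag
Tubb2a (chr13:34078009-34078158, minus strand): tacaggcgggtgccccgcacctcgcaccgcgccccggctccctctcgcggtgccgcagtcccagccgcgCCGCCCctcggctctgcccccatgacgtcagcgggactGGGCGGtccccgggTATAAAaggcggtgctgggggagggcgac
The stretches of *Tuba1b* and *Tuba1a*, and that of *Tuba4a*, which is not printed, lie within the GENCODE bounds given above for these genes. The starts of the annotations thus differ there, and the motif counts and distances of these genes depend on the annotation. RefSeq promoters were given for 7 of the 10 genes. In the 250 bases before the start, *Tubb4b* held 5 copies of CCAAT, a number reached by 0.213% of 32851 promoters of that length, and *Tubb5* held 2 and *Tuba1a* and *Tuba1c* 1 each. At least 1 CCAAT was present in 33.9% of all these promoters. GGGCGG was present in 5 of the 7, those of *Tuba1a*, *Tuba1b*, *Tuba4a*, *Tubb4b* and *Tubb2a*, against 32.7% of all promoters. TATAAA was found in *Tubb2a* alone, 29 bases before the start, against 12.4% of all promoters. CACGTG was found in *Tubb5* alone, against 6.02%, and TTTGAA, the cell cycle homology region, in *Tubb4b* alone, against 15.99%. Both strands were searched and none of the 20 matches overlapped another. These matches describe letters and not binding.

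The kept cells numbered 8031 for unstimulated WT, 9903 for stimulated WT and 13920 for IFT20-KO, with medians of 4627, 12167 and 5014.5 unique molecular identifiers (UMIs) per cell. Between 114 and 197 cell barcodes were shared by each pair of libraries, at most 1.99% of a library. *Ift20* stood at 64.4 counts per 1000000 UMIs (CPM) in unstimulated WT cells, 76.0 in stimulated WT cells and 6.60 in the knockout. T cell markers (*Cd3e*, *Cd3d*, *Trac*, *Cd4*) summed to 2193 to 2493 CPM, and B cell, myeloid, NK, platelet and erythroid markers each to at most 3.31 CPM. CD8 markers summed to 28.7, 9.16 and 11.5 CPM, of which *Cd8b1* gave 28.6, 9.04 and 11.2 and *Cd8a* 0.162, 0.120 and 0.291, and their part in the tubulin values was not tested. The IFT20-KO library stood apart in depth, with 2 of 5 equal bins of its cells ending at 3030 UMIs. The tubulin sum and several tubulin genes are therefore also given for stimulated cells with at least 5000 UMIs. Values of the other gene lists below cover all kept cells, and the part of depth in them was not tested.

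Stimulated WT cells held more tubulin mRNA than unstimulated ones, and most of the difference lay in beta tubulin. The 10 genes together took 1448 CPM in unstimulated WT, 2470 in stimulated WT and 2322 in IFT20-KO cells. The log2 ratio of stimulated over unstimulated WT was 0.77 (95% interval 0.76 to 0.78). It was 0.93 for the beta genes, from 1022 to 1950 CPM, and 0.24 for the alpha genes, from 409 to 482 CPM. The ratio of alpha to beta UMIs was accordingly 0.4005 in unstimulated WT, 0.247 in stimulated WT and 0.231 in IFT20-KO cells. Per kept cell, the 10 genes gave 6.70, 29.2 and 17.8 UMIs, so that the log2 ratio of stimulation was 2.12 when it was not scaled to the total. The median log2 ratio of all 13297 genes with at least 10 UMIs was -0.09 on the CPM scale and 1.26 per cell, and the tubulin sum lay above it on both.

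**Figure D1:**
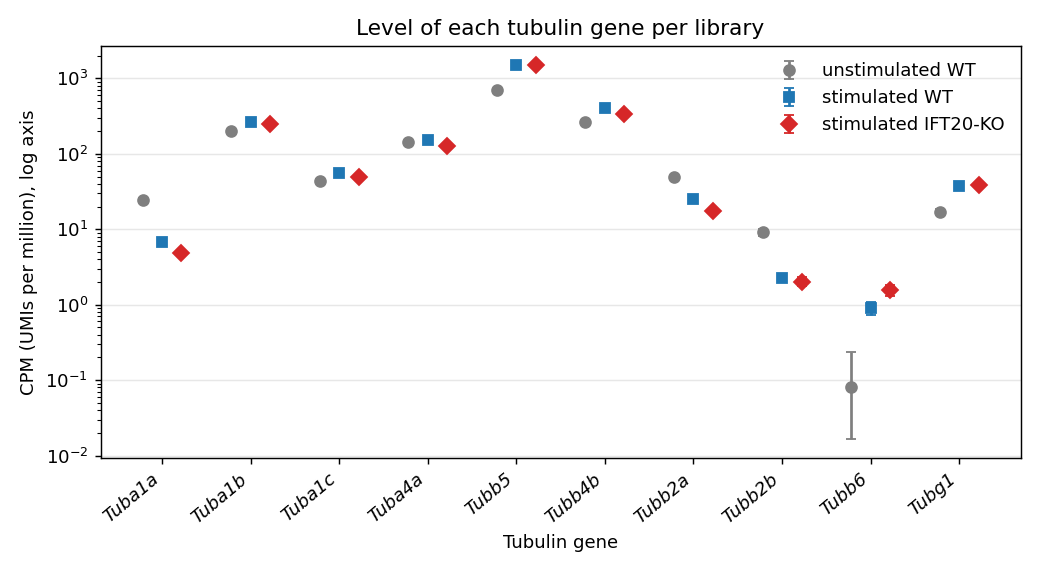
Level of each tubulin gene in the 3 libraries, in CPM on a log axis; points are library values and bars 95% Poisson intervals, mostly smaller than the points. *Tubb5* was the highest gene in each library (701, 1517 and 1498 CPM), and *Tuba1a*, *Tubb2a* and *Tubb2b* stood lower in both stimulated libraries than in the unstimulated one.

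Among the beta genes, *Tubb5*, the widely expressed class I isotype of dividing cells, stood at 701 CPM in unstimulated WT, 1517 in stimulated WT and 1498 in IFT20-KO cells. Its log2 ratio on stimulation was 1.11 (1.09 to 1.13). *Tubb4b*, another widely expressed isotype and a part of axonemes in ciliated cells, stood at 262, 405 and 336 CPM, which gives a log2 ratio of 0.63 (0.60 to 0.66). Both therefore stood above unstimulated cells in each stimulated library.

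*Tubb2a* and *Tubb2b*, isotypes best known from neurons, went the other way. *Tubb2a* stood at 49.1 CPM in unstimulated WT, 25.0 in stimulated WT and 17.7 in IFT20-KO cells, a log2 ratio of -0.97 (-1.06 to -0.89) on stimulation, which turns to 0.38 per kept cell since stimulated cells held more UMIs each. *Tubb2b* stood at 9.13, 2.24 and 2.02 CPM, which gives a log2 ratio of -2.03 (-2.27 to -1.79). *Tubb6*, the class V isotype, had 3 UMIs in the unstimulated library (0.0808 CPM), 106 in stimulated WT (0.906 CPM) and 165 in IFT20-KO (1.55 CPM). Its log2 ratio of 3.49 had an interval of 1.90 to 5.79.

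Among the alpha genes, *Tuba1b*, the main alpha isotype of most dividing cells, stood at 199 CPM in unstimulated WT, 267 in stimulated WT and 245 in IFT20-KO cells, a log2 ratio of 0.43 (0.39 to 0.46). *Tuba1c* stood at 44.4, 56.0 and 49.1 CPM, which gives a log2 ratio of 0.34 (0.26 to 0.42). *Tuba4a*, the alpha isotype encoded without the terminal tyrosine that others carry, stood at 142, 152 and 128 CPM. Its log2 ratio of 0.10 (0.06 to 0.15) was the smallest in size of the 10.

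*Tuba1a*, the alpha isotype of postmitotic neurons, was the only alpha gene that stood lower after stimulation, at 24.5 CPM in unstimulated WT, 6.82 in stimulated WT and 4.87 in IFT20-KO cells. The log2 ratio was -1.84 (-1.98 to -1.71), while its neighbor *Tuba1b* stood at 0.43. *Tubg1*, the main gamma tubulin of dividing cells, stood at 17.0, 37.8 and 39.2 CPM, which gives a log2 ratio of 1.15 (1.03 to 1.27).

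Read against all genes, 3 of the 10 tubulin genes (*Tubb5*, *Tubb6* and *Tubg1*) lay at a log2 ratio of at least 1, as did 19.3% of the 13297 genes. *Tuba1a* and *Tubb2b*, 2 of the 10, lay at -1 or below, as did 23.0% of all genes. These shares of 30% and 20% were near those of all genes at this number of members. Per kept cell, 7 of the 10 lay at 1 or above, as did 58.5% of all genes, and *Tuba1a*, *Tubb2a* and *Tubb2b* did not. *Tubb2a* at -0.97 lay just outside the lower limit and *Tubb5* at 1.11 was the called gene nearest to the upper one. In cells of 5000 to 10000 UMIs, of which unstimulated WT had 2966 and stimulated WT 1253, *Tubb5* stood at 0.98, *Tubg1* at 0.81 and *Tubb6* at 0.81 (3 UMIs in either library). *Tubb2b* stood there at -0.80, *Tuba1a* at -1.21 and *Tuba4a* at -0.11. *Tuba1b* stood at 0.09 there instead of 0.43 and *Tubb2a* at -0.47 instead of -0.97, while *Tubb4b* stood at 0.51 and *Tuba1c* at 0.35. Of the 5 genes past the limits, *Tuba1a* alone stayed past it in that window, for which the share of all genes was not computed.

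**Figure D2:**
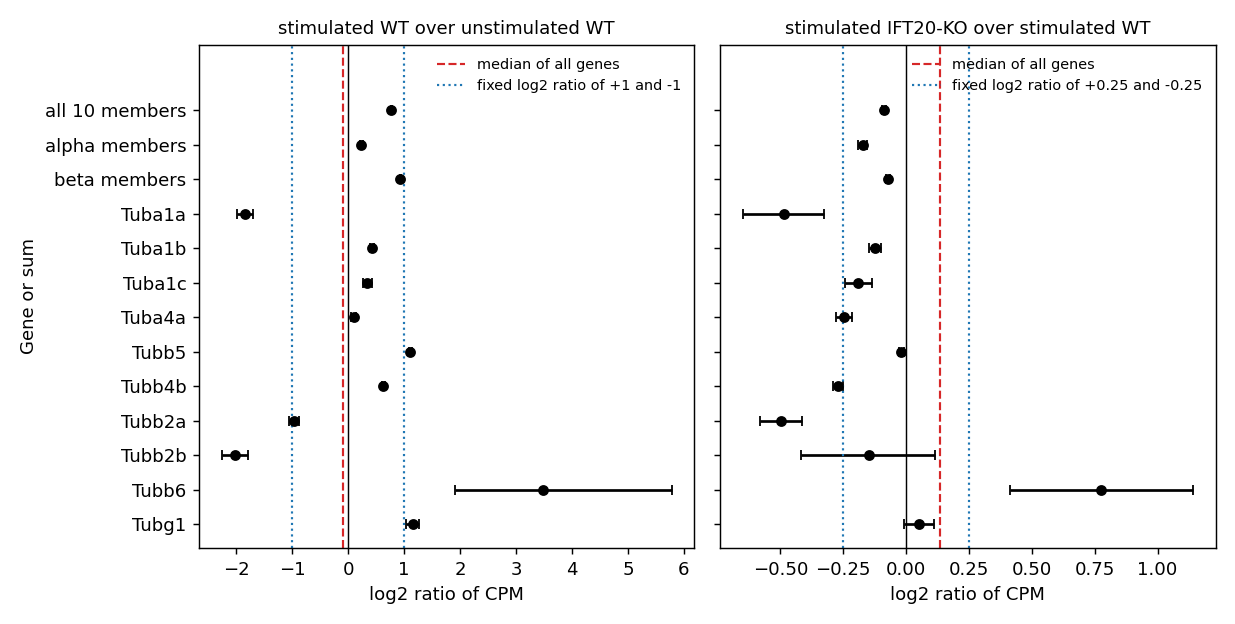
Log2 ratios of CPM with 95% counting intervals for stimulated WT over unstimulated WT (left) and stimulated IFT20-KO over stimulated WT (right), for the sum, the alpha and beta genes and each of the 10; dashed lines mark the median of all genes and dotted lines the fixed limits. On stimulation *Tuba1a* and *Tubb2b* lay beyond -1 and *Tubb6*, *Tubg1* and *Tubb5* beyond 1, and in the knockout *Tubb6* alone lay above the median of all genes.

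The make-up of each class shows the same shift without any scaling to the library, since a share within a class does not depend on the total. *Tubb5* made up 68.6% of beta tubulin UMIs in unstimulated WT, 77.8% in stimulated WT and 80.7% in IFT20-KO cells. The difference on stimulation was 9.14 percentage points (8.64 to 9.64). *Tubb4b* made up 25.6%, 20.8% and 18.1%, so it held a smaller share of beta tubulin although its CPM was higher. *Tubb2a* made up 4.81%, 1.28% and 0.956% and *Tubb2b* 0.893%, 0.115% and 0.109%. *Tubb6* did not exceed 0.0836% in any library.

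Within alpha tubulin, *Tuba1b* made up 48.5% in unstimulated WT, 55.4% in stimulated WT and 57.4% in IFT20-KO cells, a difference of 6.86 points (5.97 to 7.76) on stimulation. *Tuba4a* made up 34.6%, 31.6% and 30.0%, and *Tuba1c* 10.8%, 11.6% and 11.5%. *Tuba1a* made up 5.99%, 1.42% and 1.14%. Summed over genes, 7.65% of alpha and 9.18% of beta UMIs lay with another isotype after stimulation. In the window of 5000 to 10000 UMIs the difference for *Tuba1b* was 3.02 points, and that for *Tubb5* was 7.96.

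**Figure D3:**
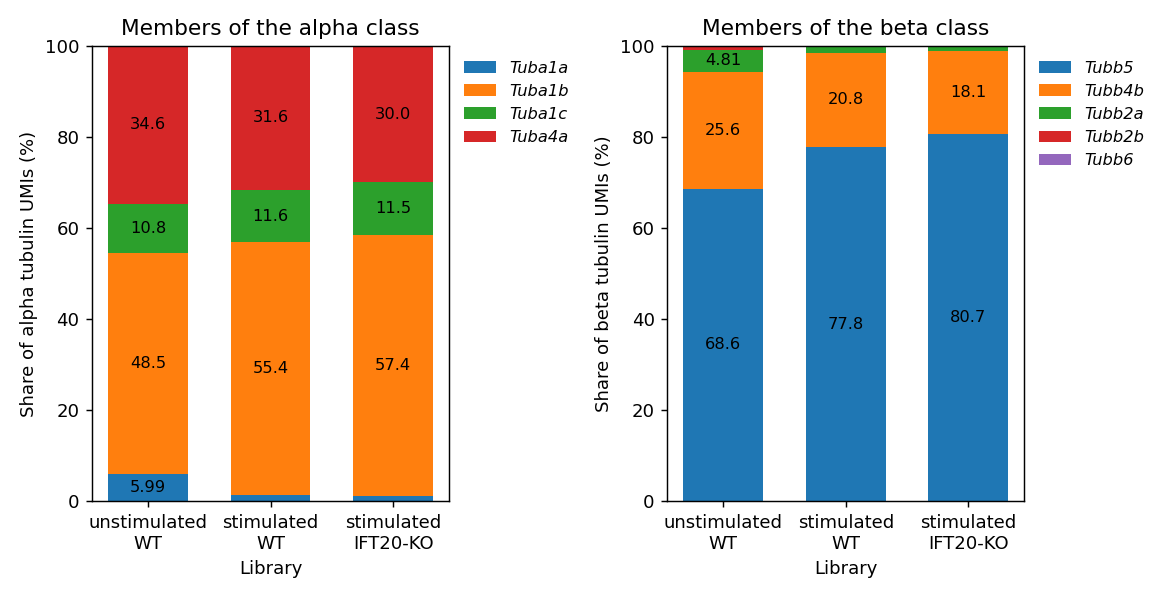
Share of each gene in the UMIs of its class, in percent, for alpha tubulin (left) and beta tubulin (right), with 1 stacked bar per library. *Tubb5* grows from 68.6% to 77.8% and 80.7% of beta tubulin and *Tuba1b* from 48.5% to 55.4% and 57.4% of alpha tubulin.

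In stimulated IFT20-KO cells the tubulin sum was slightly lower than in stimulated WT cells, with a log2 ratio of -0.09 (-0.10 to -0.08), and this comparison shares the stimulated WT library with the stimulation comparison. The median of all 13504 genes with at least 10 UMIs was 0.14, so the sum lay 0.23 below it. *Tuba1a* (log2 ratio -0.49, interval -0.65 to -0.33), *Tubb2a* (-0.50, -0.58 to -0.41) and *Tubb4b* (-0.27, -0.29 to -0.25) lay past the limit of -0.25 used for this comparison. These were 3 of the 10 genes, or 30%, against 8.06% of all genes. This count depends on the scaling, since with median-ratio scaling 7 of the 10, all but *Tubb5*, *Tubb6* and *Tubg1*, lay past -0.25, against 20.6% of all genes, while 22.3% of all genes lay past 0.25. Per kept cell, 9 of the 10 lay past -0.25, against 74.5% of all genes. *Tuba4a* at -0.246 lay just outside it and *Tubb4b* just inside. *Tubb6* at 0.77 (0.41 to 1.14) was the 1 gene past 0.25, against 37.1% of all genes. It stood at 2.31 in cells of 5000 to 10000 UMIs, where stimulated WT had 3 of its UMIs, and at 0.15 per kept cell, which is inside the limit.

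The other genes lay nearer to stimulated WT. *Tuba1c* had a log2 ratio of -0.19 and *Tuba1b* of -0.12, while *Tubb5* stood at -0.02. For *Tubb2b* (-0.15, -0.42 to 0.12) and *Tubg1* (0.05, -0.01 to 0.11) the interval included 0. *Tubg1* turned to -0.12 with median-ratio scaling, and *Tubb5* to 0.03 in stimulated cells with at least 5000 UMIs. Relative to the median of all genes, 9 of the 10 were lower and *Tubb6* was higher.

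Between genotypes the isotype shares differed by 3 points or less. *Tubb5* held 2.96 points (2.72 to 3.21) more of beta tubulin in IFT20-KO than in stimulated WT cells, and *Tubb4b* held 2.66 points less (interval of the difference -2.90 to -2.43). *Tuba1b* held 1.98 points (1.36 to 2.59) more of alpha tubulin, and *Tuba4a* stood at -1.57 points (-2.14 to -0.996). For *Tuba1c* the difference of -0.13 points had an interval of -0.53 to 0.26.

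Depth moved with these values. In stimulated cells with at least 5000 UMIs, a limit chosen after the data were seen that kept 7516 stimulated WT and 6962 IFT20-KO cells, the sum stood at -0.04, *Tubb4b* at -0.19, *Tuba1a* at -0.45 and *Tubb2a* at -0.45. *Tubb4b* thus left the called genes while *Tuba1a* and *Tubb2a* remained past -0.25. The difference in the *Tubb5* share was 2.69 points there and that in the *Tuba1b* share 2.18 points. In cells of 5000 to 10000 UMIs the sum stood at -0.02, *Tuba1b* at 0.02, *Tuba1a* at -0.64 and *Tubb2a* at -0.52. The part of depth in the knockout values beyond these windows was not tested.

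Within a library the genes followed depth in different ways when kept cells were put in 5 equal bins by UMIs. In unstimulated WT cells, *Tubb2a* stood at 67.6 CPM in the lowest bin (median 1407 UMIs) and at 61.6, 51.0, 41.9 and 42.2 in the following ones. *Tubb2b* went from 13.3 to 6.76 CPM and *Tuba1a* from 31.4 to 22.4 between the lowest and highest bin. *Tuba4a* had the opposite order, from 93.2 to 151 CPM, while *Tubb5* lay between 602 and 713 CPM in all 5 bins.

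In stimulated WT cells the lowest bin, with a median of 1754 UMIs and 10.3% mitochondrial UMIs, stood apart, with 715 CPM of *Tubb5* against 1329.5, 1433, 1534 and 1677 in the others. *Tubg1* was at 23.7 CPM there and 47.2 in the highest bin, and *Tuba1b* at 133 and 303 CPM. *Tuba1a* stayed between 3.81 and 8.45 CPM in the stimulated WT bins, below the 22.4 to 31.4 CPM of the unstimulated bins. *Tubb2a* bins likewise did not overlap, with 12.6 to 29.2 CPM in stimulated against 41.9 to 67.6 CPM in unstimulated WT. The bins of *Tubb2b* did not overlap either, nor did those of *Tubb5*, *Tubb6* and *Tubg1*, which stood higher in stimulated WT. *Tubb5* lay at 715 to 1677 against 602 to 713 CPM and *Tubg1* at 23.7 to 47.2 against 15.9 to 19.0 CPM. The share of all genes whose bins lay apart was not counted. *Tubb5* made up 76.3% to 79.9% of beta tubulin in the stimulated WT bins, 66.7% to 69.6% in the unstimulated ones and 79.5% to 83.2% in the IFT20-KO ones.

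**Figure D4:**
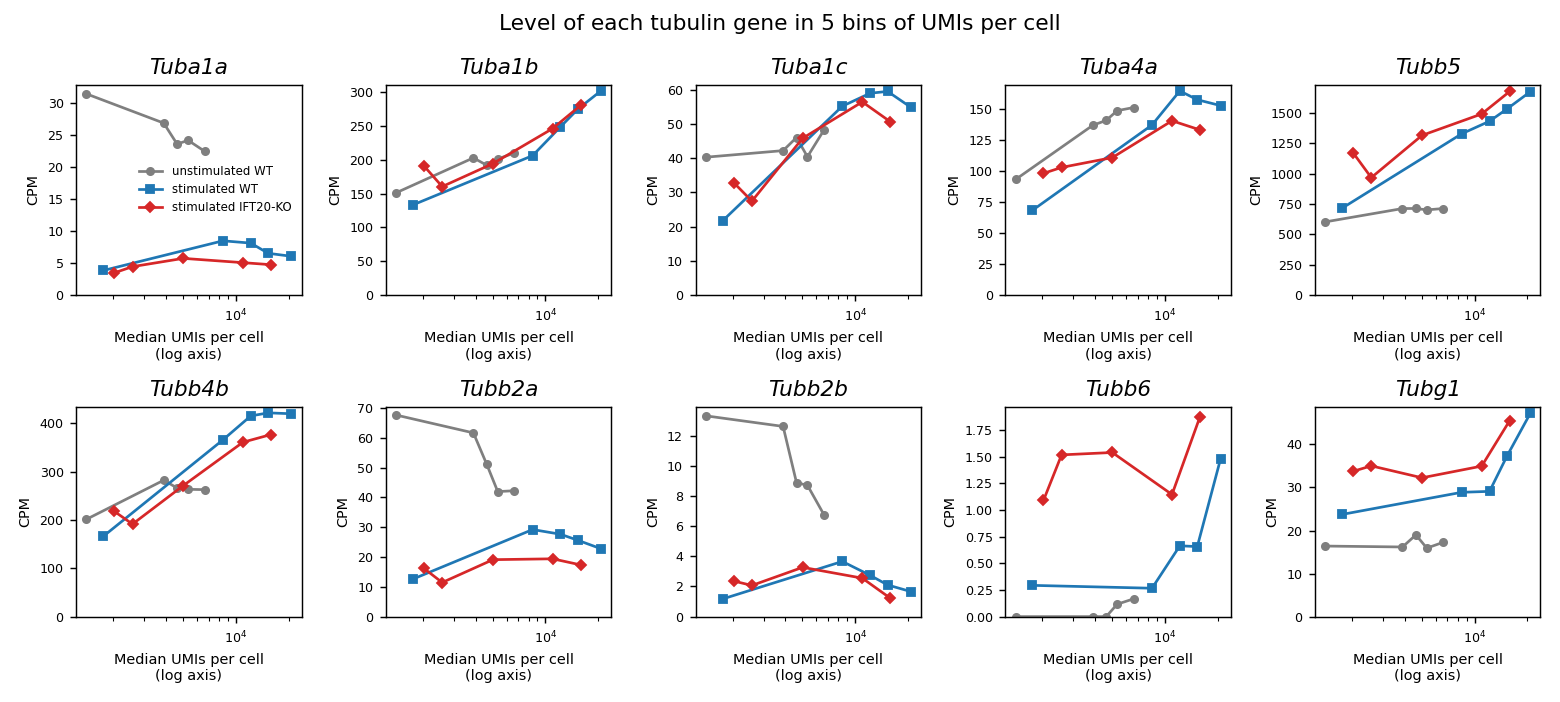
CPM of each gene (y axis, from 0) against the median UMIs per cell (log axis) of 5 equal bins of cells per library. *Tuba1a*, *Tubb2a* and *Tubb2b* of unstimulated WT cells lie above both stimulated libraries in every bin. *Tubb5*, *Tubb6* and *Tubg1* lie below them in every bin, whereas *Tuba1b* and *Tuba1c* of the 3 libraries overlap.

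The share of cells with a transcript was compared after each cell was thinned to 1400 UMIs, which left out 801 unstimulated and 421 stimulated WT cells and no IFT20-KO cell. *Tubb5* was then found in 61.1% of unstimulated WT, 80.6% of stimulated WT and 81.2% of IFT20-KO cells (86.4%, 93.1% and 95.6% before thinning). *Tubb4b* was found in 29.0%, 37.2% and 31.8%, and *Tuba1b* in 24.4%, 26.9% and 24.8%. *Tubg1* was found in 2.42%, 4.70% and 4.98% of thinned cells. *Tuba1a* was found in 3.53%, 0.854% and 0.682%, and *Tubb2a* in 6.31%, 3.16% and 2.20%. The B cell transcript *Cd79a*, which these cells should lack, was found in 0.235%, 0.0211% and 0.0431%, and *Tubb6* in 0.148% of stimulated WT and 0.187% of IFT20-KO cells. *Tubb6* was found in 3 of 8031 unstimulated cells before thinning and in 0 of 7230 after it, which allows a share of up to 0.0415% (3 cells) with a UMI at that depth.

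*Tubb2a* and *Tubb2b* were also the most unevenly spread among unstimulated cells. Their variance over mean at 1400 UMIs was 1.30 and 1.25, against 1.12 for *Tubb5* and *Tubb4b* and 1.02 for *Tuba1a* and *Tuba1b*. In stimulated WT cells the *Tubb2a* value was 1.01, and *Tubb5* was highest at 1.31. Their thinned means there were 0.032 and 1.90 UMIs per cell, so these values do not rank the relative spread of the 2 genes. In the middle 3 depth bins of unstimulated WT, the 833 cells with *Tubb2a* held 25.5 CPM of *Tubb2b* and the 3985 cells without it 6.58 CPM, which gives a log2 ratio of 1.95 (1.55 to 2.35), at medians of 4619 and 4627 UMIs. *Tuba1a* stood at 35.6 against 22.4 CPM in the same cells (0.67, 0.38 to 0.95), *Tuba1b* at 202 against 198 and *Tubb5* at 729 against 704. *Tubb4b* stood at 330 against 257 CPM (0.36, 0.27 to 0.45) and *Tuba4a* at 0.22 (0.09 to 0.34). In the 177 cells with *Tubb2b*, the log2 ratio was 0.74 (0.18 to 1.25) for *Tuba1a*, 0.51 (0.34 to 0.67) for *Tubb4b* and 0.51 (0.27 to 0.73) for *Tuba4a*. The genes higher in such cells thus included both genes that were lower after stimulation and genes that were higher. The coding sequences of *Tubb2a* and *Tubb2b* are nearly identical, and the part of read placement in their ratio was not tested.

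Some isotypes also went with activation genes, *Egr1* and *Cd69*, which are immediate early and early markers of T cell receptor signaling and were picked after their values were seen. Among unstimulated WT cells of the middle 3 bins, the 443 with *Egr1* had 73.3 CPM of *Tubb2a* against 48.1 in the 4375 without it, a log2 ratio of 0.61 (0.35 to 0.86). *Tuba1a* stood at 32.0 against 24.0 CPM (0.42, 0.03 to 0.79) and *Tuba1c* at 55.3 against 41.5 CPM (0.41, 0.12 to 0.70). *Tubb4b* stood at 311 against 265 CPM (0.23, 0.11 to 0.35). *Tubb5* stood at 692 against 710 CPM and *Tuba1b* at 184 against 200 CPM. The genes higher in cells with *Egr1* thus included genes that were lower after stimulation and genes that were higher. In stimulated WT, *Tuba1c* stood at 63.9 CPM in the 4362 cells with *Cd69* and 41.6 in the 1580 without it (0.62, 0.50 to 0.74). *Tubb4b* stood at 425 against 352 CPM (0.27, 0.23 to 0.31), and *Tubb5* at 1420 against 1563 CPM (-0.14, -0.16 to -0.12). Cells with *Cd69* were deeper, at medians of 12571 against 10965 UMIs. Of other markers in stimulated WT cells, *Egr1* gave 0.51 for *Tuba1c*, 0.18 for *Tubb4b* and -0.11 for *Tubb5*. *Tuba1c* stood at 0.19 (0.07 to 0.31) with *Il2*, 0.17 (0.06 to 0.29) with *Ccl4* and -0.18 (-0.34 to -0.02) with *Tbx21*. In the same order, *Tubb4b* stood at 0.03 (-0.01 to 0.08), -0.02 (-0.06 to 0.03) and -0.08 (-0.14 to -0.02). For *Tubb5* the 3 values were -0.09, -0.01 and 0.03.

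Cells with the highest share of G2/M transcripts held another mix, which depended on depth. The 5% of cells with the largest share of UMIs in a list of 51 G2/M genes, which holds no tubulin member, were 495 stimulated WT and 696 IFT20-KO cells. They were shallow, with medians of 2871 UMIs against 12255 in the rest of stimulated WT and 2793.5 against 6371 in the rest of IFT20-KO. In them *Tubg1* stood at 88.4 against 35.8 CPM in the remaining stimulated WT cells, a log2 ratio of 1.31 (1.15 to 1.45), and 1.08 (0.91 to 1.25) in IFT20-KO cells. *Tubb5* stood at 2477 against 1477 CPM in stimulated WT (0.75, 0.72 to 0.77) and at 0.50 (0.46 to 0.53) in IFT20-KO. *Tuba1b* stood at 0.54 and 0.36. *Tuba1c* went the other way, at -0.35 (-0.56 to -0.15) and -0.57 (-0.84 to -0.32), so alpha isotypes differed in direction in these cells.

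The same comparison was made within windows of depth, chosen after the data were seen. In stimulated WT cells of 10000 to 20000 UMIs, 100 cells of high share (median 16204 UMIs) and 4999 others (14029), *Tubg1* stood at 1.43 (1.18 to 1.67), *Tubb5* at 0.91 (0.87 to 0.96), *Tuba1b* at 0.71 (0.60 to 0.82) and *Tuba1c* at -0.63 (-1.02 to -0.26). In 108 and 4342 IFT20-KO cells of that window the values were 1.57, 0.88, 0.68 and -0.49. In stimulated WT cells of 2000 to 5000 UMIs, 145 of high share and 829 others, the intervals of all 4 genes included 0, with *Tubb5* at -0.03 (-0.21 to 0.15) and *Tubg1* at 0.43 (-0.57 to 1.32). In IFT20-KO cells of that window *Tubb5* stood at -0.18 (-0.27 to -0.10) and *Tuba1b* at -0.24 (-0.46 to -0.03). The higher *Tubb5* and *Tuba1b* of cells with a high share of G2/M transcripts were thus seen in the deeper window and not in the shallower one, and *Tuba1c* stood below the rest in the deeper one.

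Among unstimulated cells, the corresponding 402 cells held more *Tubb2a* (93.8 against 47.7 CPM, log2 ratio 0.98) and less *Tuba4a* (89.5 against 143 CPM, -0.68). These cells had a median of 2713.5 UMIs against 4692 in the rest. They held 49.9 CPM of the cycling marker *Mki67* (58 UMIs) against 0.612 in the rest. *Mki67* is itself in the list, so this difference follows at least in part from how the cells were picked. Of the 976 CPM of the list in unstimulated WT cells, however, *Smc4* gave 226 and *Lbr* 155. Both were lower after stimulation (-0.66 and -1.32), so a high share among unstimulated cells does not by itself mark cells in G2/M. In the window of 2000 to 5000 UMIs *Tubb2a* stood at 0.97 (0.60 to 1.32) and *Tuba4a* at -0.47 (-0.84 to -0.11). The limit of the 5% is a point on a range, with 307 unstimulated cells within 10% of it. *Tubb6* stood at 3.26 against 0.810 CPM in stimulated WT (2.01, 1.11 to 2.81), from 15 and 91 UMIs. In the window of 10000 to 20000 UMIs it had 4 and 52 UMIs, with an interval that included 0 (1.78, -0.15 to 3.22). Without the 5% of cells of highest G2/M share, the log2 ratio of stimulation was 1.08 for *Tubb5* and 1.08 for *Tubg1*. The ratio of IFT20-KO to WT without them was 0.86 for *Tubb6* and 0.08 for *Tubg1*. *Mki67*, a marker of cycling cells, stood at 8.91 CPM in stimulated WT and 21.6 in IFT20-KO cells. In the middle 3 depth bins, the 690 IFT20-KO cells with *Mki67* were shallow, at a median of 3393.5 UMIs against 5907 without it. The 187 such stimulated WT cells had 12281 against 12166 UMIs, and the part of depth in the *Mki67* difference was not tested.

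**Figure D5:**
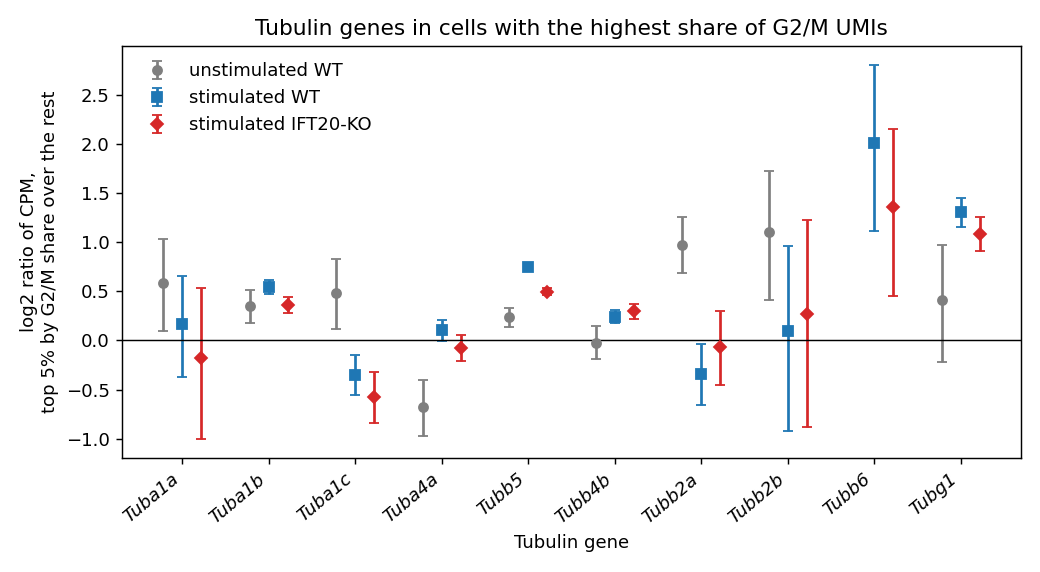
Log2 ratio of CPM, with 95% counting intervals, in the 5% of cells with the highest share of G2/M UMIs over the remaining cells of each library. Over all depths, *Tubg1*, *Tubb5* and *Tuba1b* lie above 0 in both stimulated libraries and *Tuba1c* below 0, while the medians of UMIs of the compared stimulated WT cells were 2871 and 12255; *Tubb6* of unstimulated cells has too few UMIs to show.

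Other tubulin genes were rare. *Tube1* and *Tubd1*, the epsilon and delta tubulins of centrioles, stood at 1.104 and 4.79 CPM in unstimulated WT, 3.59 and 2.46 in stimulated WT and 4.62 and 3.29 in IFT20-KO cells. The gamma tubulin *Tubg2* stood at 0.296, 0.684 and 0.930 CPM and the neuronal *Tubb3* at 0.835, 0.829 and 1.15 CPM. *Tubb4a*, *Tubal3*, *Tuba8* and *Tuba3a* each stayed at or below 0.404 CPM, and *Tubb1* and *Tuba3b* had no UMI. The listed genes of the ring complex that holds gamma tubulin, and of its partners *Nedd1*, *Cdk5rap2*, *Pcnt* and *Akap9*, went both ways on stimulation. Of these, 5 of 11 lay above and 6 below the median of all genes. Their median log2 ratio was -0.23, with 1 past the limit of 1, as 19.3% of all genes were, and 0 past -1, against 23.0%. The gene past 1 was *Mzt2*, which went from 8.13 to 18.5 CPM (1.19, 1.01 to 1.37). *Tubgcp2* (18.3 to 26.9 CPM, 0.55) and *Mzt1* (27.9 to 18.3 CPM, -0.61) were the extremes among those at 20 CPM or more. In IFT20-KO over stimulated WT cells the list's median was 0.34, with 8 of 11 past 0.25 against 37.1% of all genes. It was led by *Tubgcp6* (6.39 to 9.94 CPM, 0.64) and, among those at 20 CPM or more, *Tubgcp4* (21.9 to 29.1 CPM, 0.41). This count holds for CPM in all kept cells alone. With median-ratio scaling the median of all genes was -0.03 instead of 0.14 and 22.3% lay past 0.25, and the list was not counted there.

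Genes that fold tubulin stood higher after stimulation as a list. These are the chaperonin CCT, prefoldin and the tubulin cofactors, and their median log2 ratio was 0.93 over 20 of the 21 listed genes, with 9 of 20 at 1 or above against 19.3% of all genes. *Tcp1*, a subunit of CCT, stood at 141 CPM in unstimulated and 456 in stimulated WT (1.69), and *Cct3* at 112 and 323 (1.52). *Tbcel*, which promotes the breakdown of tubulin, went from 28.5 to 8.86 CPM (-1.69), and the cofactor *Tbcc* from 39.0 to 31.9 (-0.29). In IFT20-KO over stimulated WT cells the list had a median of -0.06, and 18 of 20 lay below the median of all genes, as 9 of the 10 tubulin genes did. Of the 20, 0 passed the limit of 0.25 upward, against 37.1% of all genes, and 0 downward, against 8.06%. These counts also hold for CPM in all kept cells alone. The list was not counted with median-ratio scaling, where 20.6% of all genes lay past -0.25.

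The autoregulation list, which holds *Ttc5*, the factor that reads the nascent tubulin chain, *Scaper* and 10 subunits of the CCR4-NOT deadenylase, had a median of -0.07 on stimulation. *Ttc5* stood at 50.2, 38.7 and 43.9 CPM and *Scaper* at 28.3, 14.6 and 17.6 CPM, in the order of the libraries above. *Cnot9* (1.05) and *Cnot11* (0.93) had the highest ratios and *Cnot6l* (-1.11) the lowest. In the knockout the median was 0.09, below the 0.14 of all genes.

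Genes of microtubule dynamics had a median of 0.22 on stimulation, with 6 of 25 past 1, near the 19.3% of all genes, and 3 past -1, against 23.0%. *Tacc2* went from 5.22 to 37.8 CPM (2.86) and *Mapre2*, an end-binding protein, from 19.9 to 46.1 CPM (1.21). *Tacc1* went from 63.6 to 22.4 CPM (-1.51) and *Macf1*, which links microtubules to actin, from 166 to 79.1 CPM (-1.07). In IFT20-KO cells their median was 0.27, with *Macf1* at 0.69 and *Stmn1*, which sequesters tubulin dimers, at 0.48, while *Mapre2* stood at -0.21. The genes listed for tubulin modification had medians of 0.19 and 0.27 in these comparisons. On stimulation 1 of 16 lay past 1, against 19.3% of all genes, and 2 past -1, against 23.0%. The 1 past 1 was *Nat10* (14.6 to 33.0 CPM, 1.18), while *Atat1* stood at 0.19 (-0.16 to 0.54). Dynein and dynactin genes had medians of -0.41 and 0.01, with *Dynll2* going from 41.4 to 174 CPM (2.07) and *Dctn6* from 118 to 57.8 CPM (-1.03) on stimulation.

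The genes whose level was most like the summed alpha and beta tubulin over 15 groups of cells (5 depth bins in each library) were *Imp3* (Pearson's r = 0.997), *Mrps24* (0.996), *Csnk2b* (0.995), *Eef1d* (0.995) and *Cox5b* (0.995), out of 3430 genes at 50 CPM or more. The 15 groups share libraries and their depth, and the values are a description.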

How the data were processed

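Single-cell RNA libraries were made with a 10x Genomics kit, which the labels call a 5′ kit and the methods a 3′ kit, so which end of a transcript was read is not settled. The authors aligned the reads to mm10 with Cell Ranger (version 3.1.0 in the matrix header) and deposited whole-number counts of UMIs per gene and barcode, without normalization. Cell Ranger counts reads that map to a single gene, and a UMI tags 1 transcript end whatever the transcript's length.

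The barcodes kept had over 200 detected genes and less than 15% of UMIs from mitochondrial genes, and UMIs were summed per library (37133949, 116979076 and 106435143 for unstimulated WT, stimulated WT and IFT20-KO). Doublets were not called. CPM has exact Poisson intervals, log2 ratios exact binomial intervals, shares Clopper-Pearson intervals, and their differences Newcombe's combination of these, at the 95% level. With 1 library per group no test was possible; called means a log2 ratio of at least 1 in size for stimulation and 0.25 for the knockout, among genes for which the compared libraries held 10 or more UMIs together, a gene at 0 being set to 3 UMIs. All 10 genes are named, and of each list the 2 highest and 2 lowest ratios among genes at 20 CPM or more in either library were eligible, though not all are reported. The tubulin genes and lists (other tubulin genes, ring complex, folding, modification, dynamics, dynein and dynactin, autoregulation, G2/M and cell markers) were chosen with earlier results of these data known. Alternatives were other cell filters, depth windows, cells without the highest G2/M shares, means of per-cell values, median-ratio scaling and UMIs per cell. Comparisons by *Tubb2a*, *Tubb2b*, *Egr1*, *Cd69*, *Il2*, *Ccl4*, *Tbx21* and *Mki67* and the depth windows of the G2/M comparison were added after the data were seen. *Mzt2* and *Tubgcp6* were also named after that. The calculation was tested on simulated data. Python 3.11.15, numpy 2.4.6, scipy 1.17.1, pandas 2.3.3, matplotlib 3.10.9 and Biopython 1.88 were used. Promoters came from RefSeq and transcripts from GENCODE M21.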

Additional observations from a re-analysis of the deposited data

How the results depend on the processing

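The log2 ratio of the tubulin sum for stimulated over unstimulated WT, 0.77, was 0.63 in cells of 5000 to 10000 UMIs, 0.75 without the 5% of cells with the highest G2/M share, 0.67 as a mean of per-cell values, 0.94 with median-ratio scaling, 2.12 per kept cell and 0.80 in stimulated cells with at least 5000 UMIs, a limit chosen after the data were seen. The knockout ratio of the sum, -0.09, was -0.105 in cells of over 1000 genes and less than 10% mitochondrial UMIs, -0.021 in the window of 5000 to 10000 UMIs, -0.102 without the 5% of cells with the most UMIs, -0.077 without the cells of highest G2/M share, -0.26 with median-ratio scaling, -0.72 per kept cell and -0.038 with at least 5000 UMIs. On stimulation the *Tuba1b* share differed by 3.02 points in the window, and the *Tubb5* share by 7.96 points in the window and 8.59 as a mean over cells. Between genotypes the *Tuba1b* share differed by 2.71 points in the window and 2.82 as a mean over cells, and the *Tubb5* share by 3.75 as a mean over cells and 2.69 with at least 5000 UMIs. These 6 results kept their direction under every alternative run, and the cause of each movement was not tested. Single genes turned direction in places: *Tuba4a* (-0.11 in the window) and *Tubb2a* (0.38 per kept cell) on stimulation, and *Tuba1b* (0.02) and *Tubb5* (0.04) in the window, *Tubb5* (0.03) with at least 5000 UMIs, *Tubb2b* (0.04 as a mean over cells) and *Tubg1* (-0.12 with median-ratio scaling, -0.58 per kept cell) in the knockout. The count of tubulin genes past the limits on stimulation was 3 higher and 2 lower of 10, against 19.3% and 23.0% of all genes. It was 0 and 1 in the window and 2 and 3 as a mean over cells. Per kept cell it was 7 and 0, against 58.5% and 6.4% of all genes. The count in the knockout was 1 higher and 3 lower, against 37.1% and 8.06% of all genes. With median-ratio scaling it was 1 and 7, against 22.3% and 20.6%, and per kept cell 0 and 9, against 5.52% and 74.5%. It was 1 and 2 with at least 5000 UMIs. With *Tuba4a* added, it was 1 and 4 in cells of over 1000 genes and less than 10% mitochondrial UMIs. The same count was found without the 5% of cells with the most UMIs. In the window it was 1 and 3, with *Tubb2b* in place of *Tubb4b*. Shares of all genes past the limits were computed only for CPM in all kept cells, median-ratio scaling and UMIs per kept cell. No paired analysis was possible because each group has 1 library, and none could be left out. Counts limit *Tubb6*, *Tubb2b* and *Tuba1a* most.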
